A study of Caenorhabditis elegans with 2 samples.

Results

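Small nucleolar RNAs (snoRNAs) are short nuclear RNAs that guide the modification of ribosomal and other RNAs. They fall into a box C/D class, which directs ribose methylation and tends to be shorter, and a box H/ACA class, which directs pseudouridylation. In animals many snoRNA genes lie inside introns of protein-coding genes and are processed from the spliced intron, while others have a promoter of their own, read by RNA polymerase II or III. The A box and B box are the short internal promoter elements of transfer RNA (tRNA) genes, bound by the polymerase III factor TFIIIC. In the nematode Caenorhabditis elegans such boxes have also been described upstream of snoRNA genes.

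The regions described here lie at snoRNA genes, in a chromatin immunoprecipitation followed by sequencing (ChIP-seq). A region was taken when its summit, the position of its peak, lay within 500 bp of an annotated snoRNA gene and not within 500 bp of a tRNA gene. This gave 261 of the 30000 regions in the list called on the pooled reads, at 206 nearest snoRNA genes, and the tRNA condition removed 3 others. The rule used position alone and no measured level. By gene, 215 of the 346 annotated snoRNA genes (62.1%) had such a region within 500 bp.

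The 2 libraries were biological replicates of 1 group, so no conditions could be compared. Both came from whole young adults of strain OP208, of mixed sex and 78 h old, grown from L1 larvae that had been starved after bleaching. The strain carries the unc-119(ed3) allele on chromosome III and an integrated transgene, wgIs208, for an nhr-27-eGFP fusion, which an anti-GFP antibody pulled down. NHR-27 is a nuclear hormone receptor. The labels disagree on the tagged protein, since a note on the strain gives a GFP-FLAG tag at the C terminus of NHR-270 in place of NHR-27. Animals were pooled and all tissues were mixed, the line is 1 transgenic strain, and no other immunoprecipitation was analysed here, so binding by the tagged protein cannot be told apart from signal that any immunoprecipitation would give at these genes. The deposited files hold a signal value per region with no stated scale and no read counts, so depth is unknown. Intervals given here cover only the error of counting regions.

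Sequence is shown for 10 genes to display short words that recur before the RNA at regions of high signal. These words were chosen after the sequences at the highest regions were seen, so finding them there is no test. Each stretch holds the 110 bases before the annotated RNA and its first 40 bases, on the strand of the snoRNA gene, from the RefSeq genome of WBcel235 (ce11). The first set holds 4 genes with a word pair that resembles the A and B boxes, TGGNNNAG followed 20 to 80 bases later by GTTCNA, and capitals mark both words. They are T03F7.8 (chrV:11314148-11314297, plus strand), W03C9.9 (chrII:11960788-11960937, plus strand), Y75B12B.12 (chrV:15191054-15191203, minus strand) and F32E10.10 (chrIV:7574012-7574161, plus strand). C51F7.3 (chrV:12303598-12303747, plus strand) holds the pair at the start of its stretch.
T03F7.8: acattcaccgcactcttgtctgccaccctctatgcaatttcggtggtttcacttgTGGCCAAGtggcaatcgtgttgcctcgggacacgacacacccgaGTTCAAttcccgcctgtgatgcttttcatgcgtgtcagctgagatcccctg
W03C9.9: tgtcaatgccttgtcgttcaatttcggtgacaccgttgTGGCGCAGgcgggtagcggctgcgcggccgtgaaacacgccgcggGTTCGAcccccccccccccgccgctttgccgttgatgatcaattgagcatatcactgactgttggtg
Y75B12B.12: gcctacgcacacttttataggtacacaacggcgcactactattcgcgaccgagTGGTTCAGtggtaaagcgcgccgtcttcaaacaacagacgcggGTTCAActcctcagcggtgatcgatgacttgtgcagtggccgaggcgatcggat
F32E10.10: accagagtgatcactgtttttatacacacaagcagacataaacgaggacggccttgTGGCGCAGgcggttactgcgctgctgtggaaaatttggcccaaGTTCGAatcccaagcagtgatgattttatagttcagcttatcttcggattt
C51F7.3: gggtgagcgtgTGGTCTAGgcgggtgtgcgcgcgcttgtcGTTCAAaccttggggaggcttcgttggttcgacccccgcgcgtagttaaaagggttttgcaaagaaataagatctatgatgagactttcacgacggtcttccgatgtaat

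The second set holds another recurring element, AACNCG followed after 5 bases by TGTC, with both parts in capitals. It is shown for ZK994.7 (chrV:8500469-8500618, plus strand), the gene of the highest region, for C07A9.14 (chrIII:9717270-9717419, plus strand) and for T06D8.11 (chrII:11224072-11224221, plus strand). The last lines match neither the pair nor the element. C10C6.8 (chrIV:11474152-11474301, minus strand) is shown as a gene whose region was kept without a match, and inexact matches were not searched for. F54E7.10 (chrIII:5679268-5679417, plus strand) is shown as a gene without a match whose region was not kept.
ZK994.7: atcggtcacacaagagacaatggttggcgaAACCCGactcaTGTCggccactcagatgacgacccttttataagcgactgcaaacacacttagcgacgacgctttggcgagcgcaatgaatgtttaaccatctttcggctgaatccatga
C07A9.14: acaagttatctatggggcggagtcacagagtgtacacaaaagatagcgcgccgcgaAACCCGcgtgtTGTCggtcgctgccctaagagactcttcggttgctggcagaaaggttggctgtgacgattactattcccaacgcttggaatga
T06D8.11: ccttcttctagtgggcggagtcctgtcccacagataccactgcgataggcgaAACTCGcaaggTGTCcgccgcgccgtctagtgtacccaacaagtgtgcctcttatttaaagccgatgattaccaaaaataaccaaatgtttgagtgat
C10C6.8: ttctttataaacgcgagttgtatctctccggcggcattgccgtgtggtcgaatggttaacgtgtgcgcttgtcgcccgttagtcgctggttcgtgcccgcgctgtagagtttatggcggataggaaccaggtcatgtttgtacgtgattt
F54E7.10: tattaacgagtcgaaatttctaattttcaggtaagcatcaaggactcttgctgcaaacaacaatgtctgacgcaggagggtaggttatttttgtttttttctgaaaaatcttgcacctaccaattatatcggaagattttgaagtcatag

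Regions at snoRNA genes had more signal than the list as a whole, and a larger share of them passed the study's reproducibility threshold. The kept set is the top of the pooled list by signal, so the share kept is not independent of the signal. The irreproducible discovery rate (IDR) threshold compares the ranks of regions between replicates, and the authors deposited the regions it kept. Among the snoRNA regions 47 of 261 were kept (18.0%, exact 95% interval 13.5% to 23.2%), against 1.31% of all 30000 pooled regions and 1.16% of the 29739 that are not at snoRNA genes. The median pooled signal was 50.7 at snoRNA genes (quartiles 37.1 and 79.4) and 38.1 over all pooled regions (quartiles 32.6 and 46.8). The kept snoRNA regions had a median of 120.7 and a lowest value of 92.1, against a median of 45.2 and a highest value of 91.9 in the snoRNA regions not kept. Those do not overlap because the kept set is the top of the pooled list by signal, and this is no separate result. All kept regions of the pooled list had a median of 109.0. GC content within 100 bp of the summit moved with these groups, with a median of 48.8% at kept snoRNA regions, 42.3% at those not kept, 45.3% at all kept regions and 40.8% over the pooled list. The part of GC content in the signal was not tested.

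The 3 highest regions of the whole pooled list were at snoRNA genes inside or at introns of chromosome V genes. The first, at ZK994.7 in an intron of the peroxidasin gene pxn-1 and on its strand, had a pooled signal of 430.2, and 218.2 in replicate 1 and 196.7 in replicate 2. Its summit was 13 bp upstream of the RNA. The second lay in C51F7.4, a snoRNA gene that overlaps an exon of frm-7, with 337.4 in the pool, 181.5 in replicate 1 and 152.8 in replicate 2. C51F7.4 lies just before C51F7.3, and the pair printed for C51F7.3 falls inside the annotated C51F7.4, so signal of the 2 genes cannot be told apart. The third, at T03F7.8 on the strand opposite to its host, the cuticlin-like gene cutl-18, had 298.9 in the pool, 165.7 in replicate 1 and 134.9 in replicate 2. These 3 regions held ranks 1, 2 and 3 in the list of each replicate.

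Most of the next regions stood between protein-coding genes. W03C9.9 had a pooled signal of 268.2, with 141.6 in replicate 1 and 129.7 in replicate 2, and rank 5 in all 3 lists. Its summit was 66 bp upstream of the RNA, where the first word of the pair stands. Y75B12B.12 had a signal of 205.5 in the pool, 115.3 in replicate 1 and 93.0 in replicate 2. F30H5.4 had 172.5 in the pool, 103.0 in replicate 1 and 74.8 in replicate 2, and F32E10.10 had 165.3, 81.6 and 80.1 in the same lists. ZK265.10 had 203.3, 100.4 and 96.9, and T19B4.8 had 168.2, 87.7 and 84.6. All 6 were kept, and each had its summit within 100 bp of the 5′ end of the RNA.

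Other regions among the 25 highest were mostly intronic. B0334.12, opposite to the potassium channel gene twk-5, had a pooled signal of 202.3 with a summit 109 bp from the RNA's 5′ end, past its 3′ end, and the replicates gave 117.8 and 80.6. F38E11.14, in the cyclic nucleotide-gated channel gene cng-3, had 169.3, with 84.2 and 87.8 in the replicates. C27H5.9, opposite to pdl-1, had 146.0, with 69.4 in replicate 1 and 77.7 in replicate 2. C10C6.8, in the cation transporter gene catp-8, had 142.8, with 63.3 in replicate 1 and 87.5 in replicate 2. K11C4.6, in the beta-spectrin gene unc-70, had 132.7, with 84.8 and 50.4, the least even replicate values of these 5. The remaining ones ran from 118.5 at F39B2.14 (at tmem-107) to 161.8 at Y23H5B.10. Between them were T06C12.16, Y43F8C.22 (in Y43F8C.7), W01C9.6 (at the globin gene glb-27), K02C4.8, D1046.6 (in the cleavage factor gene cfim-2), F01D5.12 (in F01D5.10), F59C6.15, F47G4.9 and W08G11.6 (in W08G11.3). F59C6.15 is also among the 22 snoRNA genes that share a run of at least 50 bases, upstream DNA included, with another snoRNA gene. Its reads may thus be split between copies. At the neighbours C51F7.3 and C51F7.4, also in this count, the compared stretches overlap, so a shared run need not mean a copy.

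Whether the snoRNA gene lay in an intron or between genes gave no difference in signal larger than the spread between replicates. At intronic snoRNA genes 21 of 129 regions were kept (16.3%, exact 95% interval 10.4% to 23.8%), and at intergenic ones 22 of 92 (23.9%, 15.6% to 33.9%). The median pooled signal was 49.5 at intronic and 53.4 at intergenic genes, a difference, intronic minus intergenic, of -3.81. Replicate 1's own list gave 27.1 at intronic and 30.7 at intergenic genes (-3.55), and replicate 2's list gave 28.0 and 28.1 (-0.0718). Over the replicates the difference was -1.81 ± 2.46 (SD, n = 2). An exact two-sided sign-flip test with 2 replicates cannot go below p = 0.5, so none was used. The difference turned positive when the distance to the gene was 1000 bp (3.58) and among kept regions alone (0.733).

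Strand relative to the host gene gave intervals that overlap. On the host's strand 15 of 109 regions were kept (13.8%, exact 95% interval 7.91% to 21.7%), with a median signal of 50.01. On the opposite strand 6 of 20 were kept (30%, 11.9% to 54.3%), with a median of 47.9. The 4 highest on the opposite strand were T03F7.8, B0334.12, C27H5.9 and C04G6.12, the last of them in the MAP kinase gene mpk-2, with 54.7 in replicate 1 and 61.0 in replicate 2. The 4 highest on the host's strand were ZK994.7, F38E11.14, Y43F8C.22 (152.3) and C10C6.8. A further class of 40 regions, at snoRNA genes that overlap an exon or the end of a coding gene, had 4 kept (10%, 2.79% to 23.7%) and a median of 46.9. Its kept regions were at C51F7.4, W01C9.6 (129.6), F39B2.14 (118.5) and ZK546.18 (101.2), which lies at ZK546.19 and the Mediator gene mdt-4.

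**Figure D1:**
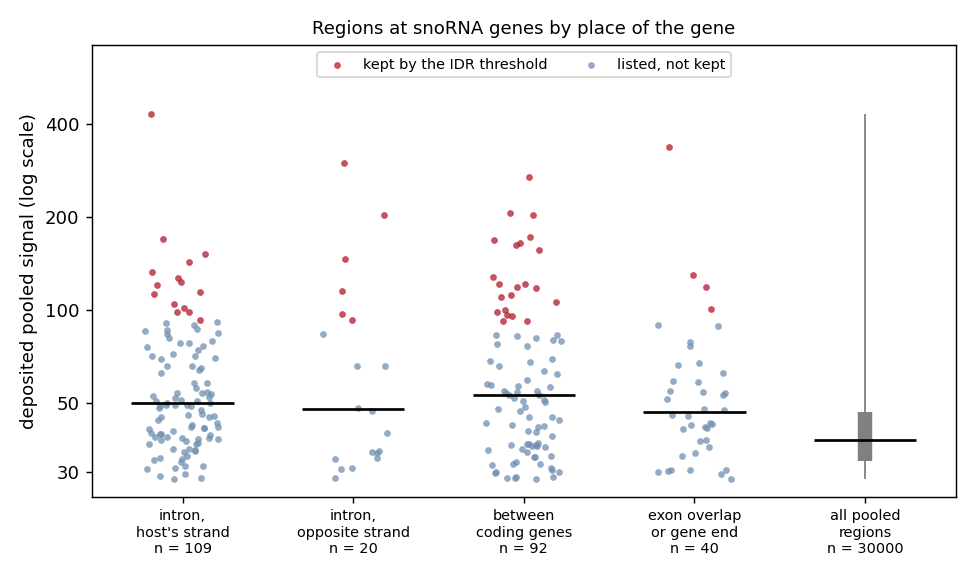
Deposited pooled signal (log scale) of each region at a snoRNA gene, by where the gene lies, beside all pooled regions. Each point is a region, red where the IDR threshold kept it and blue where not, and the line is the class median; the grey bar spans the quartiles of all 30000 regions and the thin line their range. The class medians, 46.9 to 53.4, sit close together and above the 38.1 of all regions.

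The share kept, 1.31% over all pooled regions, was also counted by promoter, RNA length and chromosome. A promoter window was set from 1000 bp upstream to 200 bp downstream of a coding gene's 5′ end. Inside it 15 of 92 snoRNA regions were kept (16.3%), and outside it 32 of 169 (18.9%). Regions at RNAs under 100 bases had 25 of 74 kept (33.8%, exact 95% interval 23.2% to 45.7%) and a median signal of 69.0. At RNAs of 100 bases or more 22 of 187 were kept (11.8%, 7.52% to 17.3%), with a median of 47.8. Length went mainly with the pair, with a median RNA of 76 bases at genes with the pair and 133 at genes without any word. It was 113 at genes with the element and 120 at genes with an A or B box word (defined below) but neither of these. Over all snoRNA genes it was 130. Length apart from the words was not tested. The X chromosome had 15 regions, of which 1, at C53B7.8 (118.5), was kept (6.67%, exact 95% interval 0.169% to 32.0%). On the autosomes 46 of 246 were kept (18.7%). The interval for X includes both this share and the 1.31% of all pooled regions. No region with a small nuclear RNA or microRNA gene also within 500 bp was kept (0 of 7, exact upper limit 41.0%). So few regions cannot be set apart from the 1.31% of all pooled regions.

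Kept regions had their summits at the 5′ end of the RNA, most often just before it. The summit lay within 100 bp of the 5′ end in 38 of 47 kept snoRNA regions (80.9%), against 57 of 214 that were not kept (26.6%). The median position was 7 bp upstream among kept regions (-7, quartiles -42 and 36), counted with 0 at the first base of the RNA, and 20 bp downstream among the others (quartiles -147 and 241). Both places of the gene gave the same picture, with kept medians of -7 at intronic genes (n = 21) and -3.5 at intergenic genes (n = 22). Within 100 bp of the 5′ end 17 of 47 intronic regions were kept (36.2%, exact 95% interval 22.7% to 51.5%), and 18 of 40 intergenic ones (45.0%, 29.3% to 61.5%).

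Signal followed position along the gene. Of the 57 regions with a summit 1 to 100 bp upstream, 23 were kept (40.4%) and the median signal was 71.2. Inside the RNA gene 15 of 48 were kept (31.3%), with a median of 67.1. Beyond the 3′ end by 1 to 100 bp 3 of 26 were kept (11.5%), with a median of 42.4. Farther downstream it was 4 of 61 (6.56%, median 42.7), and more than 100 bp upstream 2 of 69 (2.90%, median 42.3). Away from the 5′ end the snoRNA regions were thus nearer to the 38.1 of all pooled regions. Median GC content was 48.3% in the class just upstream, 45.3% inside the gene and 39.1% just past it. The exceptions among kept regions, with summits over 100 bp from the 5′ end, numbered 9. The farthest upstream were K08F11.8 (signal 105.9) and C26C6.13 (92.1, with its summit 226 bp before the RNA). The farthest downstream were F39B2.14, K02F3.15 (in the bZIP gene zip-2, 98.6) and Y43B11AR.7 (in the ribosomal protein gene rps-4, 92.7), at 422, 415 and 409 bp from the 5′ end. Of these 5, the summits at C26C6.13 and K08F11.8 were outside every coding promoter window, and the other 3 were inside one.

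**Figure D2:**
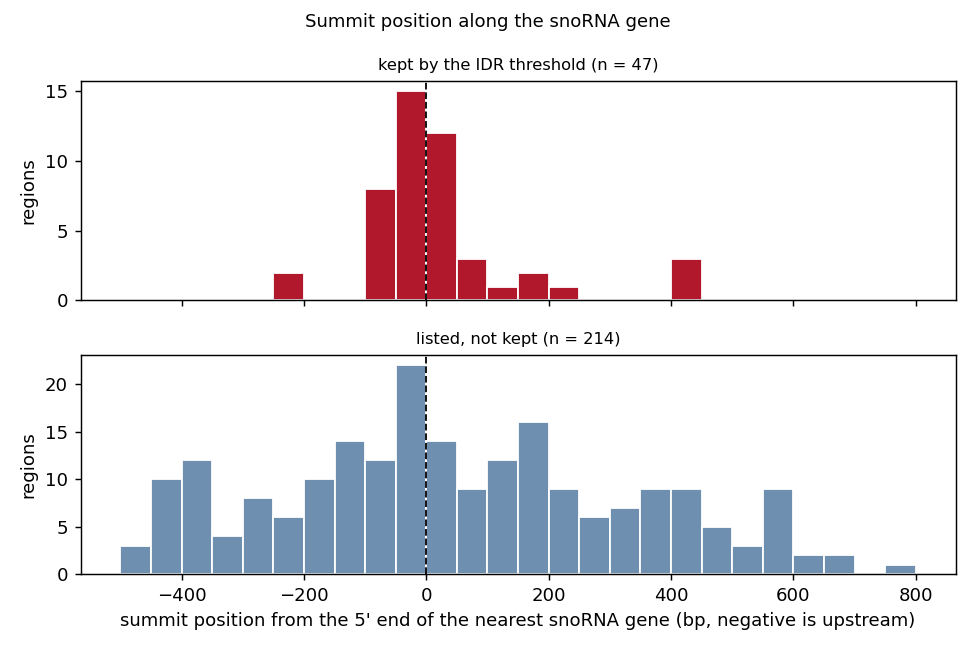
Number of regions in bins of 50 bp by the position of the summit from the 5′ end of the nearest snoRNA gene, in bp, with negative values upstream; kept regions above (n = 47) and regions not kept below (n = 214). The dashed line is the first base of the RNA. Kept summits gather around it, with 38 of 47 within 100 bp, while those not kept spread over the whole range.

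The word pair stood upstream of few snoRNA genes but of many with a kept region. In the window from 120 bases before the RNA to 30 bases into it, on the strand of the gene, 23 of 346 snoRNA genes held it (6.65%). They were 15 of the 49 genes with a kept region (30.6%), 7 of the 166 with a region that was not kept (4.22%) and 1 of the 131 with no region (0.763%). The same window of coding genes held it in 42 of 19973 (0.21%). On the opposite strand 2 snoRNA genes had it, and downstream of the RNA 1 had it. The pair began at a median of 60 bases before the RNA (-60, range -99 to -50). The words were read off the sequences at the highest of these same regions, so the counts describe the regions and do not test the words.

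Read by gene, the share kept differed widely between word groups. Of the 23 genes with the pair, 15 had a kept region (65.2%, exact 95% interval 42.7% to 83.6%), with a median highest signal of 113.9 over the 22 with any region. Of the 252 genes with neither the pair, the element nor a single box word, 14 did (5.56%, 3.07% to 9.15%), with a median of 48.4. With the pair, 7 of 13 intronic genes and 7 of 9 intergenic ones had a kept region, and without words 6 of 117 and 6 of 90. The words were chosen from the highest of these same regions, so these shares and intervals do not test them. The same limit holds for the replicate values, since both replicates went into the pool. In the replicates' lists the counterparts of regions at genes with the pair had medians of 53.1 in replicate 1 and 45.5 in replicate 2. At genes without words they were 29.7 and 28.4. In both groups some weak regions took the value of a stronger neighbour. The weak region at W03C9.9 (35.7 in the pool) took 141.6 in replicate 1, and the one at C27H5.10 (34.8), without words, took 69.4 and 77.7. The 14 kept regions whose nearest gene has the pair had every summit within 100 bp of the 5′ end, with a median position of -27.5.

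The genes with the pair and no kept region were mostly intronic. M106.6, in an intron of the condensin gene mix-1, had the highest signal of any snoRNA region not kept, 91.9, with 45.4 in replicate 1 and 51.1 in replicate 2. The other pair genes with a region that was not kept were R12E2.17 (71.2, in the proteasome gene rpn-8), R166.7 (62.7, in mnk-1), T23B12.13 (56.1, in the mitochondrial ribosomal gene mrps-2), T24H7.6 (49.3), T10B9.11 (43.2) and F17C11.15 (35.8, in the elongation factor gene eef-1G). Of these 7, T10B9.11 is intergenic and the others are intronic on the host's strand. The pair gene with no region was Y59E1B.14, on the X chromosome. These were named after their values were seen.

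The second element was before more snoRNA genes, and a smaller share of them had a kept region. It was upstream of 35 of 346 genes (10.1%), against 17 of 19973 coding genes (0.0851%), on the opposite strand of 2 and downstream of 1. Of the 35, 9 had a kept region (25.7%, exact 95% interval 12.5% to 43.3%, which overlaps the 42.7% to 83.6% of the pair at its end), 16 had a region that was not kept and 10 had none. With the window limited to the 100 bases before the RNA the intervals did not overlap, with 47.8% to 88.7% for the pair and 12.5% to 43.3% for the element. They did overlap in a window of 200 bases before to 50 into the RNA (42.5% to 82.0% and 12.5% to 43.3%). The same held without replicate 1 (34.5% to 76.8% and 10.4% to 40.1%) and without replicate 2 (30.6% to 73.2% and 8.44% to 36.9%). Both words were chosen from these same regions, so the intervals do not test them. The median highest signal was 79.5 over the 25 with a region. Its start was at a median of 59 bases before the RNA (-59, range -80 to -54), as near to the RNA as the pair's. The kept genes were ZK994.7, F01D5.12 (123.7), F59C6.15 (121.8), F47G4.9 (121.5), T08B6.64 (98.6), C16D9.11 (98.5), C07A9.14 (96.9), F25H2.15 (96.3) and Y74C9A.6 (95.6). After ZK994.7 their signals were thus close together. Their summits had a median position of 51 bp downstream of the 5′ end, and 6 of the 9 were within 100 bp of it. T08B6.64 and F25H2.15 share a 50-base run with another snoRNA gene.

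**Figure D3:**
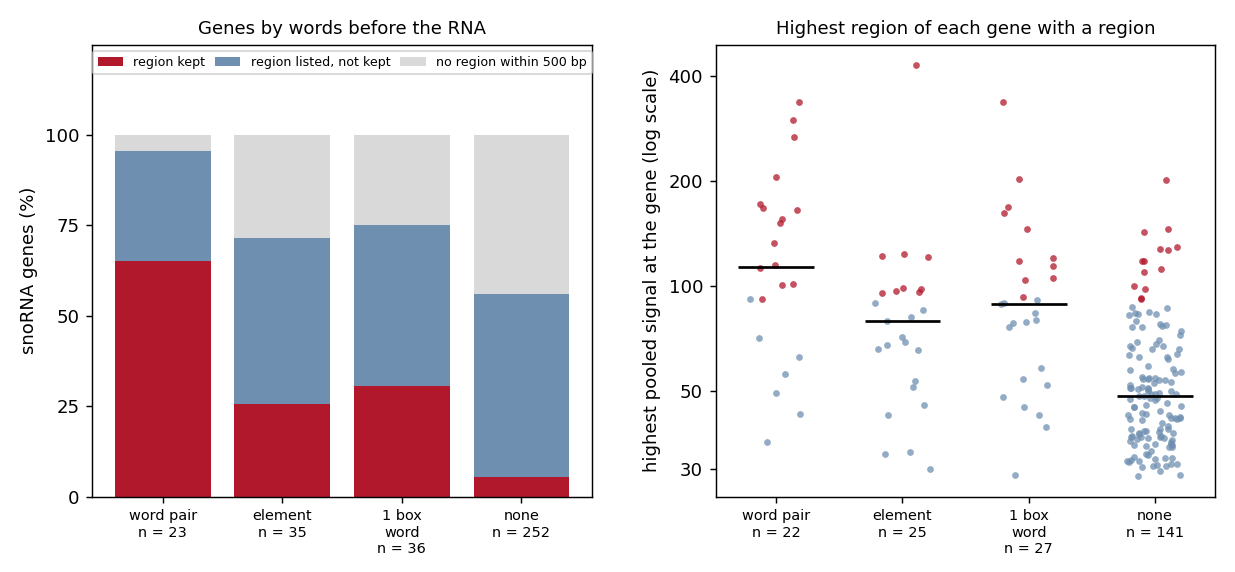
Left, the percent of snoRNA genes in each word group with a kept region, a region listed but not kept, and no region within 500 bp. Right, the highest pooled signal (log scale) at each gene that has a region, red where kept, with the median as a line. Genes with the word pair stand highest, with 15 of 23 kept and a median of 113.9, against 14 of 252 and 48.4 with none of the words. The words were chosen from the highest of these same regions, so this difference does not test them.

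Seen from the summits, the pair on either strand within 100 bp was at 22 of 261 snoRNA regions (8.43%), 16 of the 47 kept (34.0%) and 6 of the 214 not kept (2.80%), against 2.71% of all pooled regions. Regions within 500 bp of tRNA genes, which carry A and B boxes, had it at 177 of 476 (37.2%). That count takes regions kept or not, as does the 8.43% at snoRNA genes. The 271 kept regions away from both kinds of gene had it at 4.06%. The element was at 13 snoRNA summits (4.98%), against 0.55% of all pooled regions and 0.21% of those near tRNA genes. The pair and the element were chosen from the highest of these snoRNA regions, so these counts do not test them. The shorter word TGGCNNAG was at 42.6% of kept snoRNA summits, 6.54% of those not kept and 8.47% of all pooled regions. Among all kept regions of the pooled list it was at 19.6%. GGTTCGA was at 10.6% of kept, 3.27% of not kept and 2.50% of all, and at 13.2% of all kept regions. The splice acceptor word TTTCAG was at 6.38% of kept snoRNA summits, 18.7% of those not kept and 30.2% of all pooled regions, and at 16.3% of all kept regions. TATAAA was at 27.7%, 13.6% and 14.5% of the same groups and CACGCG at 12.8%, 5.61% and 3.71%. Over all kept regions TATAAA was at 15.8% and CACGCG at 12.7%, the second nearly the same as at kept snoRNA summits. TGATGA, a box C core, was at 23.4%, 18.2% and 16.9%, and GAGAGA at 21.3%, 19.2% and 15.1%. Over all kept regions TGATGA was at 14.5% and GAGAGA at 27.5%.

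The A box word and the B box word were also counted each on its own. They were chosen after the sequences of the highest regions were seen, so their counts are no test. The A box word, here TGGNNNAG then GG after 1 or 2 bases, was in the upstream window of 37 of 346 snoRNA genes (10.7%), against 95 of 19973 coding genes (0.476%). It was in 22 of the 49 kept genes (44.9%), 11 of the 166 with a region not kept (6.63%) and 4 of the 131 with no region (3.05%). The B box word GTTCNANNC was in 39 of 346 snoRNA genes (11.27%), against 461 of 19973 coding genes (2.31%). By the same groups it was in 17 of 49 (34.7%), 15 of 166 (9.04%) and 7 of 131 (5.34%). These overlap with the pair. Genes with at least 1 such word and neither the pair nor the element numbered 36, of which 11 had a kept region (30.6%, exact 95% interval 16.4% to 48.1%). They include ZK265.10, F38E11.14 and C51F7.4. Of the 14 kept genes with none of these words, the highest region was at B0334.12, whose summit window does hold the pair. The next was C27H5.10, which shares the region of C27H5.9 (146.0), and then came C10C6.8, W01C9.6, K02C4.8 and D1046.6 (127.1), of which K02C4.8 has the pair at its summit. C10C6.8, W01C9.6 and D1046.6 had none of these words within 100 bp of the summit either.

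Box words inside the RNA were counted too. A box C word near the 5′ end and a box D word near the 3′ end were both found in 14 genes, of which 5 had a kept region (35.7%, exact 95% interval 12.8% to 64.9%) and 7 had no region. The box C word, with or without box D, was in 20 genes with 6 kept (30%, 11.9% to 54.3%). The box D word, with or without box C, was in 77 genes with 19 kept (24.7%, exact 95% interval 15.6% to 35.8%), against 14.2% of all 346 genes.

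Both replicates listed most of the regions. Of the 261, 193 overlapped a region in both lists, with a median signal of 34.4 in replicate 1 and 33.1 in replicate 2 (33.7 ± 0.97, SD of the 2 medians). In 134 of them (69.4%) the values were within 1.5-fold, and Spearman's rho across these regions, which share 2 libraries, was 0.542. All 47 kept regions were in both lists, with medians of 61.2 and 64.1, and 38 (80.9%) were within 1.5-fold. A weak region beside a strong one could match the strong one's replicate region, so the 193 are not all separate matches. The weaker region at F01D5.12 (41.3), for example, took both replicate values of its stronger neighbour. With an overlap of at least 50%, or with summits within 200 bp, 163 of the 261 were matched in both lists. Each replicate's own list was also cut to its highest regions, taken in the number that the threshold had kept from the pool. That number was 1.31% of all regions in each list. Among these top regions were 40 of 252 snoRNA regions of replicate 1 (15.9%) and 47 of 267 of replicate 2 (17.6%). Of the 47 kept regions, 32 matched such a top region of replicate 1, 39 one of replicate 2 and 26 both. The kept region with the widest gap was T08B6.64, with 28.0 in replicate 1 and 74.9 in replicate 2.

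**Figure D4:**
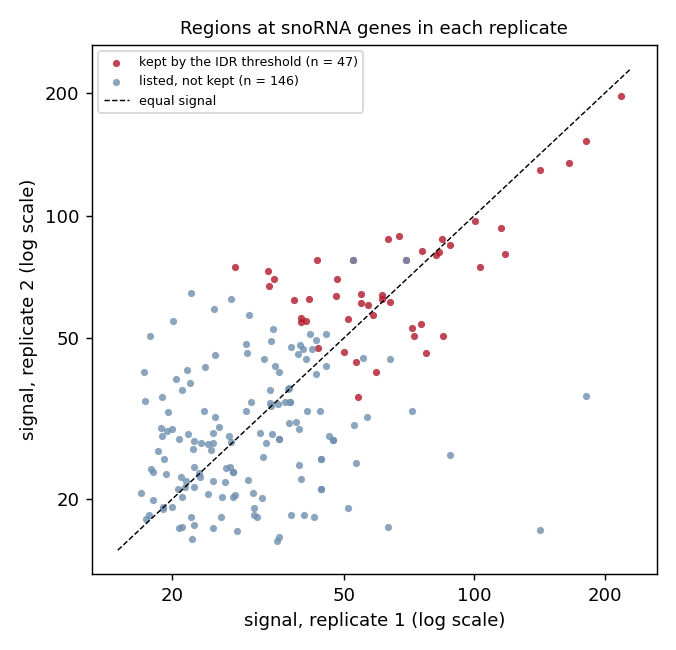
Signal of the 193 regions at snoRNA genes found in both lists, replicate 1 across and replicate 2 up, both on log scales. Each point is a region, red where kept (n = 47) and blue where not (n = 146), and the dashed line marks equal signal. Kept regions lie along the line with ratios of replicate 2 to replicate 1 from 0.593 to 2.67.

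The ranks differed most at 5 regions, none of them kept. At Y46G5A.40 the ranks were 28627 in replicate 1 and 998 in replicate 2, and at E01A2.9 they were 2774 and 29631. Second, weaker regions beside K11C4.6 (26742 and 402), W03C9.9 (5 and 26272) and C26C6.13 (28198 and 2207) followed. At W03C9.9 the replicate 1 counterpart is the strong region next to it, with an overlap of 211 bp, and at K11C4.6 the replicate 2 counterpart is likewise that of its stronger neighbour, with 224 bp. With a limit of 200 bp between summits in place of the overlap, these matches and the 5 leading regions were as before. The genes with the most regions were C34E11.20, F22D6.16 and Y43B11AR.7, with 3 each.

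Regions on either side of the distance limit had signals from 30.1 to 84.3. Just inside 500 bp were regions at C09H10.19 (483 bp, signal 30.1), C26B2.14 (483 bp, 33.7) and F54E7.11 (484 bp, 84.3), and just outside at K09H9.11 (502 bp, 67.5), F11A10.9 (502 bp, 41.0) and C16A3.11 (505 bp, 56.3). None of the 6 was kept.

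Genes whose proteins work with snoRNAs had no kept region at their promoters. The list held 15 genes, among them fib-1 (fibrillarin, the box C/D methyltransferase), nol-56 and nol-58 (its core partners), nola-3 (an H/ACA protein), ruvb-2 (an assembly ATPase) and xrn-2 (a nuclear 5′ to 3′ exonuclease). A pooled region stood in the promoter window of 7, and 0 of 15 were kept. With a floor of 3 counts this leaves room for up to 20%, against 1.01% of 19973 coding genes. The list is too short to set that apart from the background. Their highest signals had a median of 55.96, against 40.2 over the 7284 coding genes with a region. The highest was xrn-2 at 91.6 (rank 403, just below the threshold), with 52.7 in replicate 1 and 36.3 in replicate 2, and nola-3 followed at 86.3, with 54.5 and 34.5. The others were nol-58 (63.2), ruvb-2 (55.96), fib-1 (54.3), ncl-1 (49.9) and nol-56 (35.4).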

How the data were processed

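Anti-GFP ChIP-seq regions of 2 biological replicates, numbered so in the labels, were analysed with their pooled list and the list left by the IDR threshold. Per the deposited text notes, the authors made all lists on assembly ce11. The aligner, the peak caller with its settings and the IDR threshold are not given in the sources used here. Each region's signal value is the authors' deposited one, of unstated scale, and served for ranks and descriptions inside 1 list. All regions fall inside the chromosomes of WBcel235, the same build (0 past an end).

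Summits were set against Ensembl 115 genes, of which 345 of 346 snoRNA names are also snoRNAs in RefSeq. A replicate counterpart was the region with the largest overlap, of at least 1 bp. Classes, positions and words were counted with Python 3.11.15, pandas 2.3.3 and numpy 2.4.6, and exact binomial intervals came from scipy 1.17.1. Assignment and word search were tested on simulated data. No test was run: 1 group, 2 replicates.

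The members and lists were chosen with earlier results of these data known, and the pair, the element and the single box words after seeing the sequences of the highest regions. Named genes are the 25 highest regions, the 4 highest of each class, 3 on either side of the distance limit, the 5 with the largest rank differences, genes with the most regions, and kept maturation genes. Genes listed by word group, exceptions to the 5′ position and unkept maturation genes were named after their values were seen. Alternatives changed the distance (200 and 1000 bp), gene assignment, word windows, list and replicate.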

Additional observations from a re-analysis of the deposited data

How the results depend on the processing

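No paired analysis was possible because the study has 1 group. Of 68 alternative values 44 stayed close to the main value, 21 moved and 3 reversed; 11 of those that moved were shares of single words, which change with the width of the window. The share of snoRNA regions kept was 24.7% at a distance of 200 bp and 12.3% at 1000 bp, where there were 423 regions. The intronic minus intergenic difference was 3.58 at 1000 bp and 0.733 among kept regions, and -3.55 to -0.0718 with 1 replicate left out. The median summit position was 12.5 bp at 200 bp, 14 bp at 1000 bp, 3 bp with the nearest 5′ end, -7 bp among kept regions, and 10.5 to 12 bp with 1 replicate left out. Maturation genes in the top list numbered 0 to 2 with 1 replicate left out. Genes with the pair had a top region in 52.2% to 71.4% over its alternatives and those with the element in 20% to 25.7%. The cause of each shift was not tested, except that the distance sets which regions enter. Read depth is unknown, so no value carries a counting error of reads.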
